A study of Mus musculus with 24 samples.

Results

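Amino acid transporter genes of pancreatic organoids were examined, 10 in all, namely Slc1a5, Slc1a4, Slc7a5, Slc3a2, Slc7a11, Slc7a1, Slc38a1, Slc38a2, Slc6a9 and Slc43a1. They were chosen by symbol, because their products carry glutamine, leucine, cystine, arginine, serine or glycine across the plasma membrane or, for Slc3a2, bring such a carrier there. Of these 10 genes, 9 had an entry of their own among the 19895 entries of the count table. Slc6a9 was counted only in an entry combined with Ccdc24, written Ccdc24+Slc6a9 here. Of the 10, 8 were tested, as part of the 11438 entries with a single symbol that occurs once and at least 1 count in each library. Slc43a1 was not tested, because it had no count in many libraries.

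The study asked which mRNAs depend for their translation on eIF4A, the helicase that opens the leader of an mRNA for the ribosome, in pancreatic ductal adenocarcinoma. N organoids were grown from ducts of wild-type C57Bl/6J mice. KP organoids were grown from pancreatic tumours of C57Bl/6J mice with Pdx1-Cre, and their genotype includes the allele Trp53+/LSL-R172H, which gives the mutant p53 R172H. In these mice Cre is driven by the Pdx1 promoter, which is active in the developing pancreatic epithelium. All cultures were kept without EGF and without N-acetylcysteine, an antioxidant, for the experiments, and all received cycloheximide at harvest. Organoids of each type received vehicle (DMSO) or 10 nM CR-31, a synthetic rocaglate that inhibits eIF4A, for 1 h. From each of the 12 lysates, polysome-associated mRNA (bound by at least 3 ribosomes) and total mRNA were sequenced, giving 24 libraries in 8 groups of 3. Age and sex of the mice were not given in the sources used here, and neither was whether the replicates came from separate mice, so the p-values measure the spread between these cultures only.

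Cells take up most amino acids through exchangers, which let 1 amino acid in as another leaves, and through sodium-driven carriers, which concentrate amino acids inside. The heavy chain SLC3A2 (CD98) brings SLC7A5, the leucine carrier of system L, or SLC7A11, the cystine carrier of system xc-, to the cell surface. Many of these genes are known targets of ATF4, the transcription factor that responds to amino acid shortage, and cystine entering through SLC7A11 feeds the synthesis of glutathione.

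By RefSeq, and in the mouse build GRCm38 with GENCODE vM21 genes, the members are spread over several chromosomes. Slc1a5 lies at chr7:16781340-16798274 on the plus strand, Slc1a4 at chr11:20302180-20332713 on the minus strand, Slc7a5 at chr8:121881150-121907694 on the minus strand and Slc3a2 at chr19:8706882-8723369 on the minus strand. Slc7a11 lies at chr3:49892526-50443614, Slc7a1 at chr5:148327410-148399904, Slc38a1 at chr15:96571418-96642913 and its neighbour Slc38a2 at chr15:96687392-96699730, all on the minus strand. Slc6a9 lies at chr4:117834506-117875198 and Slc43a1 at chr2:84838850-84863594, both on the plus strand. The counts were made on coding transcripts, so introns did not contribute.

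Promoters from RefSeq (GRCm38.p6, 250 bases before to 50 bases after the start of transcription) were matched for 7 of the 10 members, some with several starts, giving 10 windows. Windows of 4 tested members with a match to the ATF4 or NRF2 element are shown. TGATGNAA, TGACNNNGC and CACGTG were searched on both strands. TGATGNAA, a form of the element bound by ATF4, was found in 2 of the 10 windows, of Slc7a11 and Slc1a4, against 3.97% of 32851 promoter windows. TGACNNNGC, the core of the element bound by NRF2, was found in 5 of the 10 windows, those being 2 of Slc6a9 and 1 each of Slc7a1, Slc38a2 and Slc43a1, against 12.4% of windows. The E-box CACGTG, bound by MYC among others, was found in 1 of the 10 windows, of Slc43a1, against 7.15% of windows. Slc7a11 held TGATGNAA on both strands, 66 and 47 bases before its start. In the windows that follow, capitals mark the match, and the sequences are given 5′ to 3′ on the strand of the gene.
Slc7a11, chr3:50443614-50443863, minus strand: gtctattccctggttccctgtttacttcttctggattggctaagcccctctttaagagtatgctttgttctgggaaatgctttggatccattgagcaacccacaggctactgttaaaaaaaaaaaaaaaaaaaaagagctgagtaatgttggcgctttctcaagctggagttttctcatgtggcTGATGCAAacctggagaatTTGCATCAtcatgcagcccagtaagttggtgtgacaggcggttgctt
Slc1a4, chr11:20332699-20332728, minus strand: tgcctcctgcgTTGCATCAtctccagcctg
Slc38a2, chr15:96699737-96699766, minus strand: gccccgcccacTGACGCGGCgccccgccgc
Slc7a1, chr5:148399897-148399926, minus strand: gcggccgcgcgGCGCTGTCAttggtgccct
Slc1a4 and Slc7a1 hold their match as the reverse complement. A match in a window is a description and says nothing of binding in these organoids.

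The 5′ leader, the stretch of an mRNA that eIF4A acts on, was longer than usual in most members. Among 11004 tested genes with an annotated leader (96.2%), the median leader was 178 bases, its median GC content 64.7%, and 51.2% of the genes had an ATG upstream of the start codon. Of the 10 members, 9 had longer leaders than this median, and Slc7a5 was shorter, with 88 bases. Slc1a5 had 561 bases, Slc38a1 515, Slc6a9 514, Slc38a2 410, Slc7a11 350, Slc43a1 309, Slc7a1 280, Slc3a2 274 and Slc1a4 241. GC content ran from 49.7% in Slc7a11 to 73.9% in Slc7a5. Upstream ATGs numbered 8 in the leader of Slc38a1, 3 in Slc6a9, 2 in Slc43a1 and 1 each in Slc1a5, Slc7a11 and Slc7a1, and none was present in those of Slc1a4, Slc7a5, Slc3a2 and Slc38a2.

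Libraries held 47308461 to 267463046 counts, and within each organoid type the replicates were split over a pair of sequencing lanes or runs. No lane held both organoid types, so type and lane cannot be told apart. The 8 duct epithelium markers, keratins and Epcam among them, were all tested and summed to 8027 to 13706 CPM (counts scaled to the library size) in N and 6067 to 11069 in KP libraries. The summed levels of acinar markers were at most 7.005 CPM, those of leukocyte markers 4.66 to 27.6 in N and 1.99 to 9.93 in KP, mainly Cd68, those of fibroblast markers 0.427 to 1.04 in N and 0.0551 to 0.320 in KP, and those of endothelial markers at most 0.349 and of endocrine markers at most 0.190. With vehicle, 5 of the 8 duct markers were called lower in polysome-associated mRNA of KP than of N and 1 higher (edgeR). Of the 2 tested acinar markers 1 was called lower, and the 1 tested leukocyte marker (-1.19) and the 1 tested fibroblast marker (-2.71) were lower too. Over all tested genes, 22.2% were called lower and 20.9% higher in this comparison. Their part in the differences of the transporters between N and KP was not tested.

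Levels between genes were set side by side only per length, as the RPKM values that the authors deposited, given as mean ± SD with n = 3. In polysome-associated mRNA of KP organoids with vehicle, the pair that makes the leucine carrier led, with Slc7a5 at 78.9 ± 28.3 RPKM and Slc3a2 at 72.2 ± 1.43 RPKM. Slc1a5 followed at 37.4 ± 13.01, then Ccdc24+Slc6a9 at 20.96 ± 9.73 and Slc38a2 at 19.2 ± 3.83 RPKM. The next were Slc1a4 at 13.8 ± 5.33, Slc7a1 at 13.5 ± 2.49, Slc7a11 at 9.998 ± 2.04 and Slc38a1 at 5.25 ± 1.27 RPKM. In this order, Slc7a5 and Slc3a2, Ccdc24+Slc6a9 and Slc38a2, and Slc1a4 and Slc7a1 are neighbours that differed by less than the larger of their SDs. In N organoids Slc3a2 had the highest mean at 88.7 ± 52.0, followed by Slc7a5 at 49.8 ± 39.5 and Slc38a2 at 48.8 ± 24.6 RPKM, while Slc7a1 at 23.5 ± 19.8, Slc1a5 at 22.3 ± 11.6, Ccdc24+Slc6a9 at 18.2 ± 8.32, Slc7a11 at 17.9 ± 16.6, Slc1a4 at 12.97 ± 10.4 and Slc38a1 at 11.5 ± 7.37 RPKM each lay within 1 SD of the next. Slc3a2 and Slc7a5, and Slc7a5 and Slc38a2, also differed by less than the larger of their SDs in N.

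The N cultures differed widely from each other in these genes. Averaged over vehicle and CR-31, Slc7a11 differed 10.3-fold between the highest and lowest N culture in polysome-associated mRNA, Slc7a5 5.79-fold, Slc1a4 5.20-fold and Slc1a5 3.54-fold, against 1.86-fold, 1.59-fold, 2.22-fold and 1.99-fold in KP. On the same averages, replicate 1 of N was the highest of the 3 in 7 of 8 members in polysome-associated mRNA, where it was highest for 35.9% of all tested genes, and in 8 of 8 in total mRNA, against 38.6%. Replicate 2 of N was the lowest in 7 of 8 members in both fractions, against 28.3% of all genes in polysome-associated and 28.8% in total mRNA. In polysome-associated mRNA the exceptions were Slc3a2, which was highest in replicate 3, and Slc38a1, which was lowest there. In KP, replicate 2 was highest for 5 of 8 members in polysome-associated mRNA, against 36.7% of all genes. The median SD of log2 CPM between N cultures was 1.05 for the members and 0.384 for all tested genes in polysome-associated mRNA, and 0.949 and 0.347 in total mRNA. In KP the medians were nearer, with 0.326 and 0.248 in polysome-associated and 0.291 and 0.246 in total mRNA.

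For each gene, KP was compared with N, and CR-31 with vehicle. CPM values were scaled with TMM within each fraction and are given in the order of replicates 1, 2 and 3. Changes are log2 fold changes with standard errors from edgeR's quasi-likelihood test, adjusted over the 11438 genes, and called where the adjusted p was under 0.25. Translational efficiency (TE) is the polysome-associated level relative to total mRNA.

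**Figure D1:**
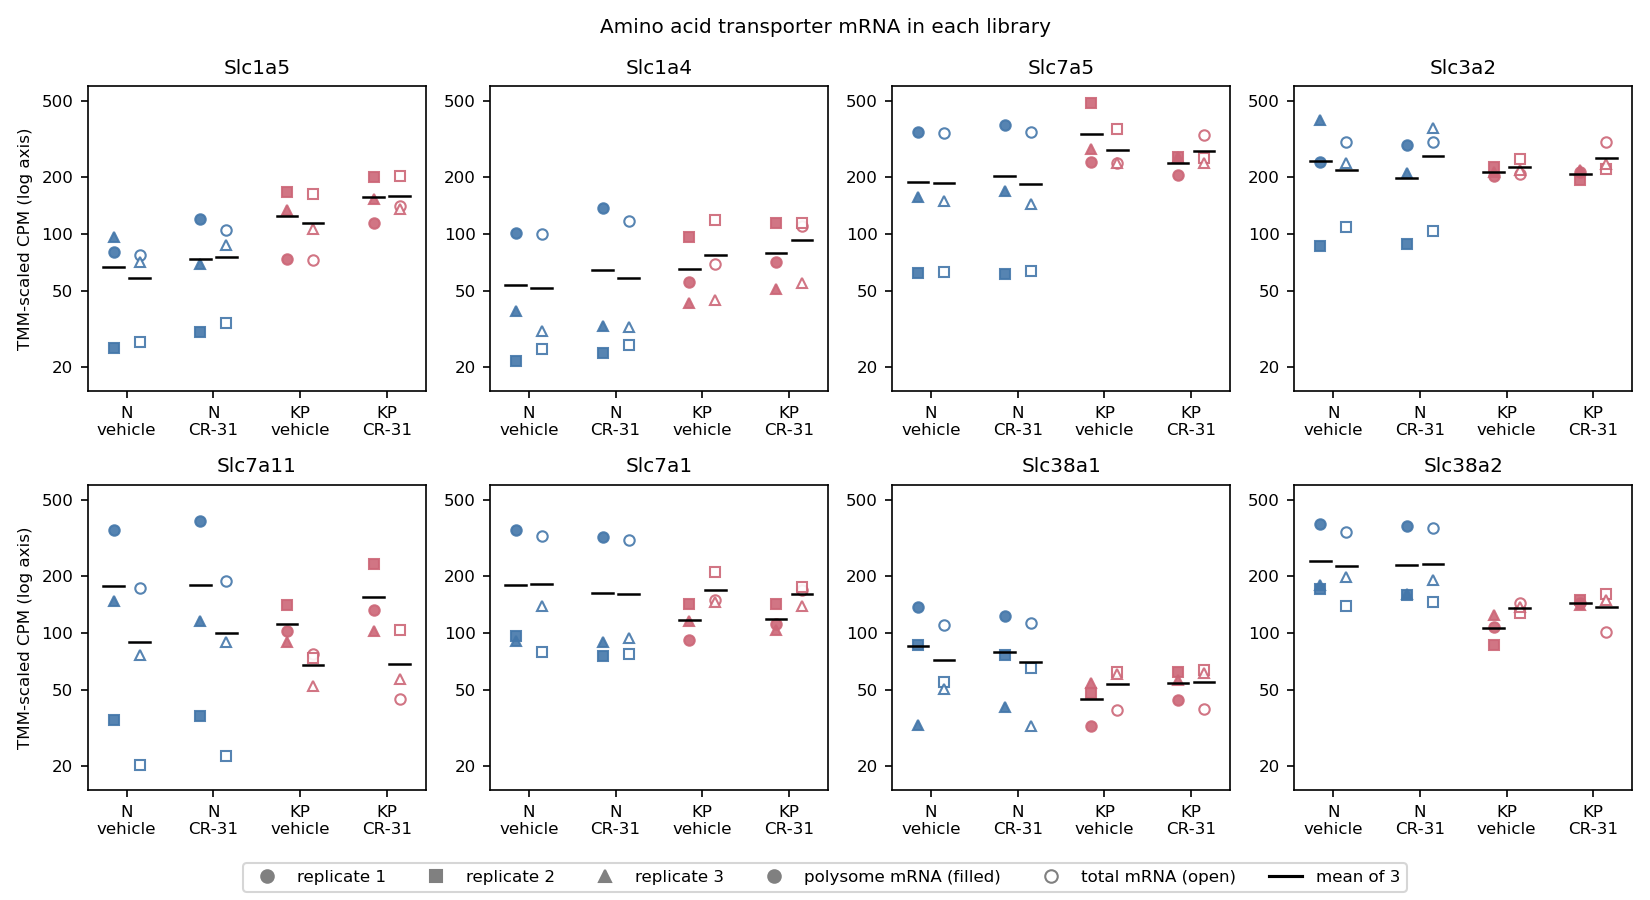
CPM of each member in all 24 libraries on a log axis, by organoid type, treatment and fraction, with 1 point per library. The 3 N points of a group lie far apart in most panels, while Slc38a2 in KP polysome libraries with vehicle lies below all N libraries.

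Slc1a5 (ASCT2) exchanges glutamine for other neutral amino acids. In polysome-associated mRNA, its level in N was 80.3, 25.3 and 96.8 CPM with vehicle and 121, 30.7 and 69.5 with CR-31, and in KP it was 73.9, 166 and 134 with vehicle and 114, 201 and 153 with CR-31. KP replicates 2 and 3 were above all N libraries, while KP replicate 1 was within their range. In total mRNA the values were 78.2, 27.04 and 71.4 in N with vehicle, 105, 34.04 and 87.5 with CR-31, 73.6, 162 and 106 in KP with vehicle, and 141, 202 and 135 with CR-31. With vehicle, Slc1a5 was higher in KP by 0.88 ± 0.53 in polysome-associated mRNA, which missed the threshold (edgeR, adjusted p = 0.272), and rose by 0.95 ± 0.46 in total mRNA (adjusted p = 0.229). The polysome-associated difference was called without N vehicle replicate 3 (1.23), N CR-31 replicate 1 (0.88) or 2 (0.86) or KP vehicle replicate 1 (1.15). The total mRNA call was lost without N vehicle replicate 2 (0.61) or 3 (1.11), without KP vehicle replicate 1 (1.19), 2 (0.61) or 3 (1.00), and without KP CR-31 replicate 2 (0.95) or 3 (0.95). With CR-31 in both types, total Slc1a5 did not overlap between KP and N, as was so for 15% of genes in that direction, and was 2.11-fold higher in KP (1.08 ± 0.46, adjusted p = 0.146). This call was lost without N CR-31 replicate 2 (0.73) and without KP CR-31 replicate 1 (1.16) or 2 (0.87). The polysome-associated difference with CR-31 was 1.08 ± 0.54 (adjusted p = 0.259). The TE difference was -0.04 ± 0.22 (adjusted p = 0.946).

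Total Slc1a5 leaned the same way with CR-31 in both organoid types. The level was higher with CR-31 in all 6 pairs of the same replicate number, by 0.43, 0.33 and 0.29 in N and by 0.94, 0.32 and 0.35 in KP on the log2 scale, as was so for 7.50% of genes. The mean changes were 0.36 ± 0.46 in N and 0.49 ± 0.46 in KP, and neither passed the test (edgeR, adjusted p = 1). In polysome-associated mRNA the change was 0.63, 0.27 and 0.19 in KP, but 0.59, 0.28 and -0.48 in N, where replicate 3 ran the other way.

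Slc1a4 (ASCT1) is the related exchanger of alanine, serine and cysteine. Its polysome-associated level was 102, 21.7 and 39.7 CPM in N with vehicle, 137, 23.7 and 32.8 with CR-31, 56.0, 96.1 and 43.6 in KP with vehicle, and 71.2, 115 and 51.5 with CR-31. N replicate 1 was the highest or among the highest of all libraries and N replicate 2 the lowest, so the types overlapped. The KP difference with vehicle was 0.26 ± 0.67 in polysome-associated mRNA (edgeR, adjusted p = 0.822) and 0.57 ± 0.64 in total mRNA (adjusted p = 0.637). Without N vehicle replicate 1 these were 1.09 and 1.47, and the second was called (adjusted p = 0.163). CR-31 was above vehicle in all 3 KP pairs of polysome-associated mRNA, by 0.34, 0.26 and 0.24.

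Slc7a5 (LAT1) imports leucine and other large neutral amino acids. In polysome-associated mRNA its level was 344, 62.6 and 156 CPM in N with vehicle, 376, 61.6 and 169 with CR-31, 239.5, 486 and 279.7 in KP with vehicle, and 204, 254 and 254 with CR-31. The 3 KP values with CR-31 were close to each other, and KP vehicle replicate 2 was the highest of all. The KP difference with vehicle was 0.84 ± 0.63 in polysome-associated mRNA (edgeR, adjusted p = 0.378) and 0.59 ± 0.60 in total mRNA (adjusted p = 0.594). Both were called without N vehicle replicate 1, at 1.62 (adjusted p = 0.113) and 1.38 (adjusted p = 0.163), and the polysome-associated difference was 0.42 without N vehicle replicate 2 and 0.47 without KP vehicle replicate 2. In KP, polysome-associated Slc7a5 was below vehicle in all 3 pairs, by -0.23, -0.93 and -0.14, and total Slc7a5 differed by 0.49, -0.52 and 0.00. In N the polysome-associated differences were 0.13, -0.02 and 0.11. Among the 8 tested members it was the only one that was lower with CR-31 in every KP pair. The combined entry Ccdc24+Slc6a9, not among these 8, was also lower in every KP pair, at -0.02, -0.54 and -0.08.

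Slc3a2 (CD98 heavy chain) carries no amino acid itself. Its polysome-associated level was 240.3, 86.7 and 399 CPM in N with vehicle, 293, 88.8 and 208 with CR-31, 202, 225 and 213 in KP with vehicle, and 212, 193 and 218 with CR-31. The 6 KP libraries lay close together, with a 1.04-fold range between cultures, the smallest of the 8 members, while the N cultures spread over 3.29-fold. With vehicle, the KP difference was -0.18 ± 0.47 in polysome-associated mRNA (edgeR, adjusted p = 0.826) and 0.05 ± 0.42 in total mRNA (adjusted p = 0.964), and neither passed the test. N replicate 3 stood apart for this gene, though not for it alone. There, polysome-associated Slc3a2 was 0.70 above total mRNA with vehicle and -0.87 with CR-31 on the log2 scale, while replicates 1 and 2 stayed between -0.41 and -0.11. By the same ratio, Slc38a1 in N replicate 3 was at -0.68 with vehicle and 0.26 with CR-31, against 0.06 to 0.61 in replicates 1 and 2. Slc1a5 was at 0.39 and -0.40 in N replicate 3, against -0.22 to 0.14 in replicates 1 and 2.

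Slc43a1 (LAT3) is another leucine carrier, and its mRNA was near the limit of detection. Its counts ranged from 0 to 8 per library. N vehicle libraries had 3, 2 and 6 counts in polysome-associated and 3, 2 and 5 in total mRNA, N CR-31 libraries had 0, 2 and 0 and 2, 0 and 0, KP vehicle libraries had 8, 0 and 0 and 2, 0 and 0, and the 6 KP CR-31 libraries had none. A count of 0 allows up to 3 counts, which was at most 0.0634 CPM in the libraries at 0, and no fold was taken.

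Slc7a11 (xCT) exchanges glutamate for cystine. Its polysome-associated level was 348, 34.9 and 148 CPM in N with vehicle, 386, 36.6 and 116 with CR-31, 102, 140.4 and 90.4 in KP with vehicle, and 132, 231 and 103 with CR-31. The N cultures enclosed the KP cultures on both sides. In total mRNA the level was 173, 20.4 and 76.4 in N with vehicle, 188, 22.5 and 89.9 with CR-31, 77.7, 74.3 and 52.6 in KP with vehicle and 45.02, 104 and 57.2 with CR-31. The KP difference with vehicle was -0.67 ± 0.79 in polysome-associated mRNA (edgeR, adjusted p = 0.592) and -0.40 ± 0.73 in total mRNA (adjusted p = 0.784). In KP, polysome-associated Slc7a11 was above vehicle in all 3 pairs, by 0.37, 0.72 and 0.19, and total Slc7a11 differed by -0.79, 0.49 and 0.12. The TE change with CR-31 in KP was 0.55 ± 0.25 (unadjusted p = 0.0426, edgeR, adjusted p = 0.529). In N it was -0.22 ± 0.25, and the difference between the types was 0.77 ± 0.35 (unadjusted p = 0.0431, adjusted p = 0.419).

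Slc7a1 (CAT-1) imports arginine and lysine. Its polysome-associated level was 347, 96.2 and 91.4 CPM in N with vehicle, 319, 75.4 and 90.0 with CR-31, 91.6, 142 and 116 in KP with vehicle, and 112, 142 and 103 with CR-31. N replicate 1 stood above all other libraries, and the other N and KP libraries lay in 1 range. The KP difference with vehicle was -0.61 ± 0.58 in polysome-associated mRNA (edgeR, adjusted p = 0.494) and -0.10 ± 0.53 in total mRNA (adjusted p = 0.931). The TE difference was -0.50 ± 0.23 (unadjusted p = 0.0489, adjusted p = 0.438). With CR-31 the KP change was 0.03 ± 0.58 in polysome-associated mRNA.

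Slc38a1 (SNAT1) and Slc38a2 (SNAT2) are the sodium-driven glutamine and alanine carriers of system A, and Slc38a2 is induced when amino acids run short. In polysome-associated mRNA, Slc38a2 was at 373, 170.0 and 179.7 CPM in N with vehicle, 365, 158 and 161 with CR-31, 107, 86.6 and 124 in KP with vehicle, and 145, 149 and 141 with CR-31. Every KP library was below every N library of the same treatment, as was so for 15.8% of genes with vehicle and 14.6% with CR-31 in that direction. In total mRNA its level was 341, 138 and 197 in N with vehicle, 355, 146 and 189.8 with CR-31, 143, 127 and 137 in KP with vehicle, and 101, 160.3 and 149 with CR-31. With vehicle, Slc38a2 fell in KP by 1.18 on the log2 scale in polysome-associated mRNA (SE 0.37, 2.27-fold, edgeR, adjusted p = 0.0502), and was called at this threshold in all 26 alternative settings. The difference ranged from -1.38 to -0.72 when each library was left out in turn. Total Slc38a2 fell by 0.73 with vehicle (SE 0.37, adjusted p = 0.245) and by 0.75 with CR-31 (SE 0.37, adjusted p = 0.192). The vehicle call in total mRNA was lost without N vehicle replicate 1 (-0.30) or 3 (-0.82), without any KP vehicle replicate (-0.77, -0.69 and -0.74 for replicates 1, 2 and 3) and without KP CR-31 replicate 2 (-0.73) or 3 (-0.73). The call with CR-31 was lost without N CR-31 replicate 1 (-0.29) or KP CR-31 replicate 1 (-0.57).

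The TE difference of Slc38a2 between KP and N was -0.51 ± 0.24 (unadjusted p = 0.0477, edgeR, adjusted p = 0.437), which did not pass the test. With CR-31, the polysome-associated level in KP was above vehicle in every pair, by 0.43, 0.78 and 0.18, and the 3 CR-31 libraries lay above the 3 vehicle libraries, as was so for 8.94% of genes in that direction. In N the polysome-associated differences were -0.03, -0.11 and -0.16. Total Slc38a2 differed by -0.50, 0.33 and 0.13 in the KP cultures. The TE change in KP was 0.54 ± 0.24 (unadjusted p = 0.0386, adjusted p = 0.529), against -0.14 ± 0.24 in N.

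Slc38a1 was at 138, 87.1 and 32.9 CPM in polysome-associated mRNA of N with vehicle, 123, 76.5 and 41.2 with CR-31, 32.3, 48.8 and 54.7 in KP with vehicle, and 44.5, 62.5 and 56.9 with CR-31. N replicates 1 and 2 were above all KP libraries and N replicate 3 was within their range. With vehicle it fell in KP by 0.93 (SE 0.47, edgeR, adjusted p = 0.196). The call was lost without N vehicle replicate 1 (-0.41) or 2 (-0.92) and without KP vehicle replicate 1 (-0.73) or 2 (-0.98). In total mRNA the difference was -0.42 ± 0.42 (adjusted p = 0.593). In KP, CR-31 was above vehicle in all 3 pairs, by 0.46, 0.36 and 0.06.

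Slc6a9 (GLYT1) imports glycine. The entry Ccdc24+Slc6a9 was at 83.9, 26.3 and 73.5 CPM in polysome-associated mRNA of N with vehicle, 105, 29.5 and 70.6 with CR-31, 48.2, 126 and 66.9 in KP with vehicle, and 47.7, 87.1 and 63.2 with CR-31. N and KP overlapped, and reads of Slc6a9 and Ccdc24 cannot be told apart. When combined entries were also tested, an alternative chosen after seeing the data, the KP difference of Ccdc24+Slc6a9 with vehicle was 0.38 ± 0.51 (edgeR, adjusted p = 0.644) and the CR-31 change in KP was -0.28 ± 0.51 (adjusted p = 0.999).

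Across the 8 tested members, 2 were called between KP and N in polysome-associated mRNA with vehicle, Slc38a1 and Slc38a2, both lower, while 43.1% of all tested genes were called, 20.9% higher and 22.2% lower. In total mRNA with vehicle 2 were called, Slc1a5 higher and Slc38a2 lower, where 28.5% of genes were called, 13.1% higher and 15.4% lower. The share of members called was thus near or below that of all genes. With CR-31 in both types, no member was called in polysome-associated mRNA (25% of genes), although 1, Slc1a5, was at an adjusted p of 0.259, and the same 2 as with vehicle were called in total mRNA (39.9% of genes, 18.9% higher and 21% lower). The median difference of the members was -0.40 in polysome-associated mRNA with vehicle, against -0.03 for all genes, and -0.03 in total mRNA, against -0.03. For TE between KP and N, no gene was called by edgeR (0% of genes, with 1296 genes at an unadjusted p under 0.05 and 338 called by DESeq2), and the median difference was -0.29 for the members, against -8.69e-05 for all genes.

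**Figure D2:**
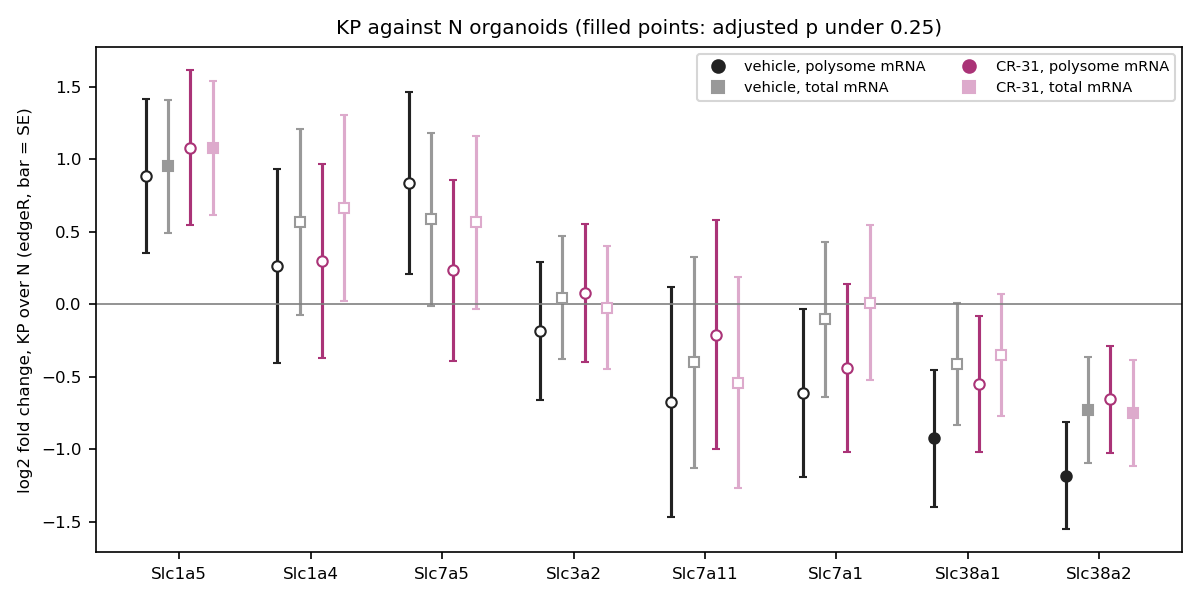
Log2 fold change of KP against N with vehicle for the 8 tested members, in polysome-associated and total mRNA, with standard errors. Slc38a2 (-1.18 and -0.73) and Slc38a1 (-0.93 and -0.42) sit below 0, and Slc1a5 (0.88 and 0.95) above it.

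No gene was called by edgeR for CR-31 against vehicle (0% in polysome-associated mRNA, total mRNA and TE of KP and of N, and for the difference between the types in polysome-associated mRNA and TE). At an unadjusted p under 0.05 there were 406, 109 and 627 genes in KP and 48, 297 and 328 in N. DESeq2 called none in polysome-associated mRNA or TE of either type, and 8 genes in total mRNA of KP and 13 in N, no member among them. By pairs of the same replicate number, however, 5 of the 8 members were above vehicle in 3 of 3 KP pairs of polysome-associated mRNA (Slc1a5, Slc1a4, Slc7a11, Slc38a1 and Slc38a2) and 1 was below (Slc7a5), against 28.9% and 30.6% of all genes. In N no tested member was above vehicle in 3 of 3 pairs (9.24% of genes), and 2, Slc7a1 and Slc38a2, were below (11.4% of genes). Slc1a5, Slc1a4, Slc3a2 and Slc7a11 were above vehicle in N replicates 1 and 2. They were below it in N replicate 3 alone, at -0.48, -0.27, -0.94 and -0.35. Slc38a1 ran the reverse way, with 0.32 in N replicate 3. The vehicle and CR-31 libraries of replicates 1 and 3 shared a lane and those of replicate 2 did not.

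Because cultures of the same number deviated together within each organoid type, the CR-31 contrasts were also fitted with the replicate number as a block. With this block, 3 members were called in KP polysome-associated mRNA. Slc38a2 rose by 0.46 ± 0.16 (edgeR, adjusted p = 0.196) and Slc7a11 by 0.43 ± 0.17 (adjusted p = 0.220), where 8.30% of genes rose, and Slc7a5 fell by 0.43 (SE 0.18, adjusted p = 0.239), where 11.1% fell. Slc1a5 (0.36, adjusted p = 0.338), Slc1a4 (0.28, adjusted p = 0.328) and Slc38a1 (0.29, adjusted p = 0.312) did not pass. None was called in N, and the difference between the types was not called for any member (Slc38a2 0.56, adjusted p = 0.347). A block without N replicate 3, chosen after seeing the data, called 6 members in KP, Slc1a5, Slc1a4, Slc7a11, Slc38a1 and Slc38a2 higher and Slc7a5 lower, but 25.4% of all genes were then called higher and 29.5% lower. In a regression of polysome-associated on total mRNA with the block, which takes out total mRNA, Slc38a2 (0.50, adjusted p = 0.231) and Slc7a11 (0.47, adjusted p = 0.240) rose with CR-31 in KP, as did 8.04% of genes. With the lane as a covariate in place of the replicate number, no member was called.

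**Figure D3:**
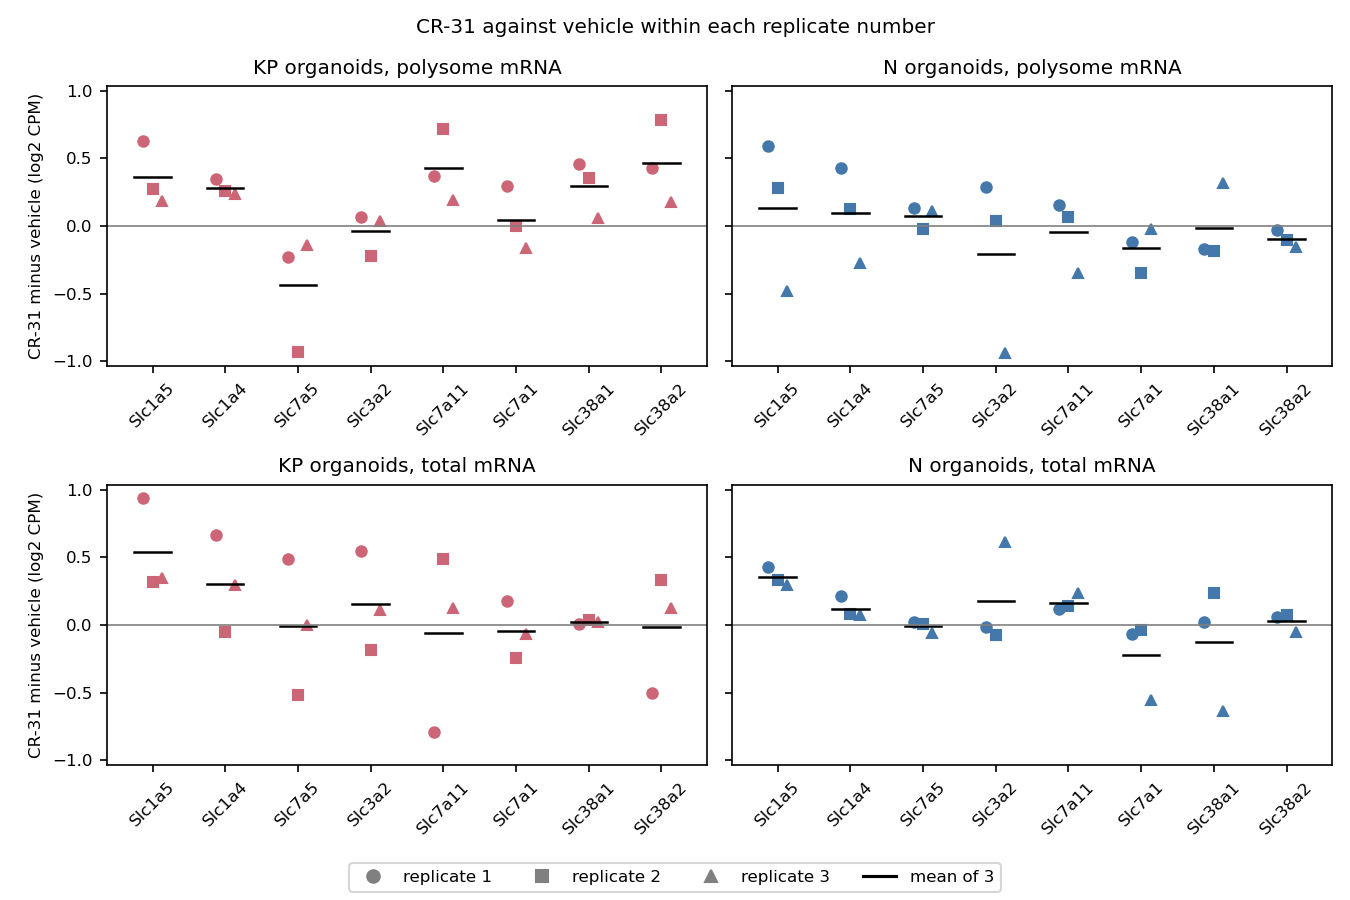
Log2 difference of CR-31 from vehicle for each replicate number in polysome-associated mRNA, by organoid type, with 1 point per pair. All 3 KP points lie above 0 for Slc1a5, Slc1a4, Slc7a11, Slc38a1 and Slc38a2 and below 0 for Slc7a5, while N points fall on both sides of 0 for most members.

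Polysome-associated and total mRNA of the same lysates were compared for each transporter as a log2 ratio, which is relative to the other genes. Slc7a11 stood out in both types. Its polysome-associated level was above its total level in 12 of 12 lysates, as was so for 3.44% of genes, and with vehicle it was higher on polysomes by 0.86 ± 0.17 in N (edgeR, adjusted p = 0.0190) and by 0.60 ± 0.17 in KP (adjusted p = 0.0825). In N it was the only member called among 15.2% of genes (8.83% higher), and the call held at the same threshold in all 24 alternatives. In KP, 27.5% of genes were called, 14.2% higher and 13.3% lower, and 4 of 8 members were called. Slc7a1 was lower on polysomes by -0.62 ± 0.16 (adjusted p = 0.0663), Slc38a2 by -0.46 ± 0.17 (adjusted p = 0.128) and Slc1a4 by -0.31 ± 0.15 (adjusted p = 0.239). Slc1a4, Slc7a1 and Slc3a2 were below their total level in 6 of 6 KP lysates, as were 15% of genes. The KP calls of Slc7a11 (0.76, 0.49 and 0.57), Slc38a2 (-0.43, -0.37 and -0.58) and Slc1a4 (-0.26, -0.27 and -0.40) were each lost without KP vehicle replicate 1, 2 or 3, and that of Slc7a1 without replicate 1 (-0.53) or 2 (-0.61). Slc1a4 was also lost without N vehicle replicate 1 (-0.31), N CR-31 replicate 1 (-0.31) or 2 (-0.31) or KP CR-31 replicate 2 (-0.31) or 3 (-0.31).

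**Figure D4:**
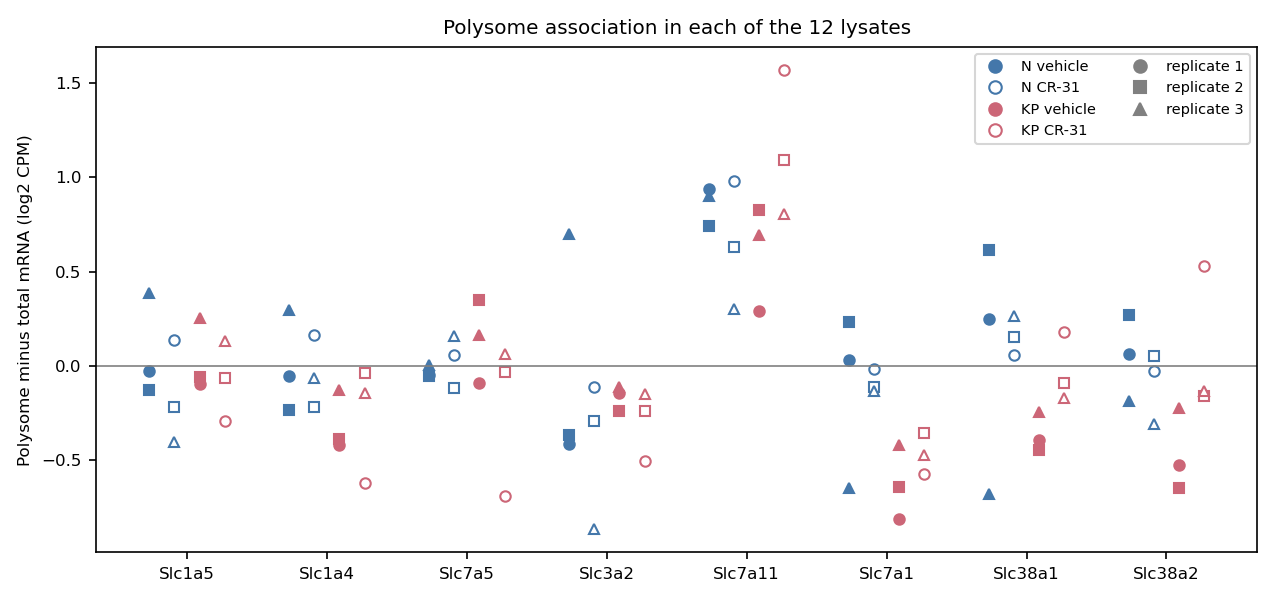
Log2 ratio of polysome-associated to total mRNA of each member in the 12 lysates, by organoid type and treatment. Slc7a11 is above 0 in every lysate, and Slc7a1, Slc1a4 and Slc3a2 are below 0 in every KP lysate.

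Other amino acid transporters and users of glutamine and cystine were taken as lists. Of 31 other plasma membrane transporters, 12 were tested, of which 1 was higher and 4 lower in KP than in N in polysome-associated mRNA with vehicle. Here and in the lists that follow, the shares over all tested genes were 20.9% higher and 22.2% lower. Slc16a10 (TAT1), which carries aromatic amino acids, rose by 2.29 ± 0.37 (edgeR, adjusted p = 0.00445), from 7.37 ± 3.23 to 36.01 ± 2.77 CPM. Slc7a2, a cationic carrier like Slc7a1, fell by 3.34 (SE 0.73, adjusted p = 0.0135), from 0.603 ± 0.339 to 0.0583 ± 0.0414 CPM. Its level in KP was near the limit of detection, so the size of this fall is uncertain. Slc43a2 (LAT4) fell by 1.92 (SE 0.49, adjusted p = 0.0239), from 66.8 ± 24.9 to 17.7 ± 9.15 CPM. Of 7 lysosomal transporters, 5 were tested and 2 were lower, Slc38a9 (-0.58 ± 0.31, adjusted p = 0.220), which senses arginine for mTORC1, and Ctns (-0.57 ± 0.32, adjusted p = 0.240), the cystine exporter of lysosomes, while Slc38a7 differed by 0.45 ± 0.28 (adjusted p = 0.283). Of 10 mitochondrial carriers, 8 were tested and 5 rose and none fell, among them Slc25a38 (0.86 ± 0.21, adjusted p = 0.0222), a glycine carrier, Slc25a44 (0.77 ± 0.21, adjusted p = 0.0313), a carrier of branched-chain amino acids, and Sfxn1 (0.51 ± 0.22, adjusted p = 0.140), a serine carrier. Their median difference was 0.52, against -0.03 for all genes and -0.51 for the plasma membrane list.

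Of 12 genes that use glutamine or cystine inside the cell, 11 were tested, 5 rose and 1 fell in KP, against 43.1% of all genes called in either direction. Gpt, an alanine aminotransferase, rose by 2.56 ± 0.28 (edgeR, adjusted p = 0.000647), from 2.99 ± 0.754 to 17.6 ± 1.13 CPM. Got2, the mitochondrial aspartate aminotransferase, rose by 0.54 ± 0.18 (adjusted p = 0.0682). Glul, glutamine synthetase, fell by 1.88 (SE 0.60, adjusted p = 0.0520), from 43.7 ± 27.3 to 11.9 ± 2.95 CPM. With CR-31 in KP, no gene of the 4 lists was called in polysome-associated mRNA by edgeR without the block. With the block, Slc7a6 was called among the 12 other plasma membrane carriers (higher, 0.45, adjusted p = 0.239), Slc25a38 (-0.44, adjusted p = 0.193) and Slc25a44 (-0.34, adjusted p = 0.243) fell, and Gpt fell (-0.40, adjusted p = 0.207). Over all tested genes, 8.30% were called higher and 11.1% lower with the block. Slc7a8 (-0.80, adjusted p = 0.492), Slc38a7 (-0.26, adjusted p = 0.355) and Ctns (0.31, adjusted p = 0.297) did not pass with the block.

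Genes whose levels were like those of Slc1a5 over the 24 libraries were found by Pearson's r of log2 CPM among 11437 genes. Among the 3 most alike were Phgdh (r = 0.933), the first enzyme of serine synthesis, and Ccnd1 (r = 0.929), cyclin D1. Among the members, Slc7a5 had r = 0.846 and rank 30, Slc1a4 0.756 and rank 181, Slc3a2 0.703, Slc7a11 0.584 and Slc7a1 0.449, while Slc38a1 (-0.103) and Slc38a2 (-0.0903) had no such likeness. The 24 points share cultures, since each lysate gave both fractions and the N cultures lie far apart, so these values are a description.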

How the data were processed

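The authors aligned read pairs with HISAT2, used SAMtools, discarded reads with several matches, and deposited raw counts per RefSeq coding transcript with RPKM values of the same 24 libraries. Their processing notes name the human build hg38 (GRCh38), although the symbols are those of mouse RefSeq genes, and replicates were not pooled. No per-sample column was left without a sample (0).

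The counts were filtered to entries with 1 symbol and a count above 0 in every library (11457), less those whose symbol occurs in more than 1 entry, which left 11438 genes, TMM-normalized and tested with edgeR 4.0.16 (quasi-likelihood, R 4.3.3) over the 4 groups of each fraction, with Benjamini-Hochberg adjustment and a threshold of 0.25 after the study. TE was tested as the interaction of fraction and group over the 24 libraries with the lysate as a block. RPKM values were not tested. Ratios of polysome-associated to total mRNA in single lysates used 0.5 added counts. Alternatives used DESeq2 1.42.0, limma 3.58.1 (regression on total mRNA), RLE or upper-quartile scaling, other filters, a lane covariate, left-out libraries and a replicate block. The fits were tested on simulated data.

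The members and lists were chosen with earlier results of these data known. All members were named, with up to 3 genes per list of smallest p for KP against N, up to 2 for CR-31 in KP, and the 3 most like Slc1a5, except that items withheld for evaluation are not reported here. Replicate numbers come from the labels. Deviations of same-numbered cultures correlated at 0.56 to 0.89 between N vehicle and N CR-31 and at 0.45 to 0.80 in KP (6 of 6 pairs above 0.1 each), but at -0.14 to 0.28 and -0.17 to 0.20 between N and KP, so the numbers pair treatments within a type only. The RefSeq tables used here held promoters of 7 members, and no protein sequences were used.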

Additional observations from a re-analysis of the deposited data

How the results depend on the processing

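The 15 comparisons gave 120 values of members, of which 11 were called, and no called value changed sign under an alternative, while 73 of the 109 uncalled values did under at least 1. With the replicate block within organoid type, 6 of 8 members were called for KP against N with vehicle in polysome-associated mRNA (68.8% of all genes), 5 in total mRNA (56.4%), 6 and 5 in the same fractions with CR-31 (58.2% and 65.1%), and 3 for CR-31 in KP polysome-associated mRNA (19.3%). Replicate numbers pair no N culture with a KP culture, so the block there measures KP against N by the spread within cultures. With the block and without N replicate 3, chosen after seeing the data, the counts were 7 and 6 for KP against N with vehicle (80.8% and 53.9% of all genes), 3 for its TE (42.3%), 8 and 6 with CR-31 (73.9% and 62.7%), 6 for CR-31 in KP polysome-associated mRNA (54.9%) and 4 for its TE (46.1%), 2 for CR-31 in N polysome-associated mRNA (15%), and 3 for the difference between types (27%). The regression on total mRNA with the block called 3 members for TE of KP against N (54.1%) and 2 for TE with CR-31 in KP (16.7%). At a threshold of 0.05, 0 members were called for KP against N with vehicle in either fraction, in total mRNA with CR-31, and for polysome-associated against total mRNA in KP. For KP against N in total mRNA with vehicle, filterByExpr and no filter each left 1. For polysome-associated mRNA with CR-31, filterByExpr and DESeq2 each called 1. Leaving out 1 library, or both lysates of 1 culture, at a time gave 1 to 3 and 0 to 4 members for KP against N with vehicle in the 2 fractions, 0 to 3 for its TE, 0 to 4 in each fraction with CR-31, and 1 to 3 in N and 0 to 6 in KP for polysome-associated against total mRNA. For the threshold of 0.05, the filters, DESeq2 and the left-out settings, the share of all genes called is not given. Those counts are therefore not read as particular to the members. The uncalled difference of Slc3a2 for KP against N in polysome-associated mRNA became 0.052 with the block and 0.56 with the block without N replicate 3. With libraries or cultures left out in this way, the same comparison ran from -0.13 to 1.09 for Slc1a4, 0.40 to 1.62 for Slc7a5 (called without N replicate 1), -0.60 to 0.39 for Slc3a2, -1.17 to 0.28 for Slc7a11 and -0.93 to 0.31 for Slc7a1, and CR-31 in KP polysome-associated mRNA from -0.0896 to 0.68 for Slc1a4, -0.0904 to 0.0511 for Slc3a2 and -0.11 to 0.21 for Slc7a1. The cause was not tested. Each tested member had at least 1280 counts in every library.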
